A study of Mus musculus with 4 samples.

Results

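The binding sites of the glucocorticoid receptor (GR) at the mouse gene Zbtb16 were followed in cells given corticosterone for 1 h or 12 h. The sites are the peaks whose centre lay in the Zbtb16 span (chromosome 9, 48651797 to 48836225, mm10) or within 250 kb of it. Peaks of both lists that overlapped by at least 1 bp were counted as 1 site. By this rule 8 of the 5638 peaks listed at 1 h and 8 of the 2883 peaks listed at 12 h were members. Of these, 7 were shared, which gave 9 sites among 6085 in all.

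Zbtb16 encodes PLZF, a transcription factor with a BTB domain and a row of zinc fingers that recruits corepressors to DNA. It is a known glucocorticoid-induced gene in many cell types, and its human counterpart was first found as a fusion partner of the retinoic acid receptor alpha gene in acute promyelocytic leukaemia. GR is a nuclear receptor that is held by chaperones in the cytoplasm until hormone binds, after which it enters the nucleus and occupies regulatory DNA, often far from the start of the gene. Corticosterone is the main glucocorticoid of rodents.

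Chromatin immunoprecipitation and sequencing (ChIP-seq) with a mixture of GR antibodies was done in 33AP1C9 cells. This line derives from C127 mouse mammary epithelial cells and carries a stably integrated MMTV-pp7 reporter, a viral hormone-responsive promoter, together with a GFP-tagged PP7 coat protein. Before hormone all groups were kept in phenol red free medium with charcoal-stripped serum. The groups were untreated cells, cells with 600 nM corticosterone for 1 h and cells with 600 nM corticosterone for 12 h, with 1 library each. The libraries held 79203826, 90556119 and 97749688 tags, a tag being 1 aligned read. Since each condition had 1 library, conditions could not be tested against each other and values have no replicate check. Intervals below cover counting error and compare libraries, and PCR copies are not independent molecules. The labels give a different catalogue number for the second antibody in each of the 4 samples (1004, 1006, 1008 and, for the input, 1010). The even steps may be an error of entry for 1 antibody, and if the antibody did differ, its part and that of time cannot be told apart.

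The values are the deposited normalised tag counts per peak, scaled to a library of 10000000 tags and called tags below. The control of the caller was the untreated library at 1 h and at 12 h. A listed site therefore stood at least 6-fold above that library by construction, and at least 6-fold above the surrounding 10 kb. Peak windows were 282 bp wide at 1 h and 302 bp at 12 h.

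Most of the sites formed a cluster within the gene. Numbered along the chromosome, site 1 lay 3.39 kb below the low-coordinate end of the span, and sites 2 to 9 lay inside it, within 63.1 kb of each other. Sites 2 to 6 were closest together, with 16.5 kb from the centre of site 2 to that of site 6. No site lay in the 250 kb beyond the high-coordinate end, to which site 9 was the nearest at 49.3 kb. The peaks next outside the locus were distant and weak to moderate. At 1 h they lay 1026 kb below the span (10.4 tags, nearest to Cadm1) and 758 kb above it (37.5 tags, nearest to Ncam1), and at 12 h 3539 kb below (10.8 tags, nearest to Scn2b) and 697 kb above (9.21 tags, nearest to Ncam1). A limit anywhere between 25 kb and 500 kb from the gene gave the same members.

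**Figure D1:**
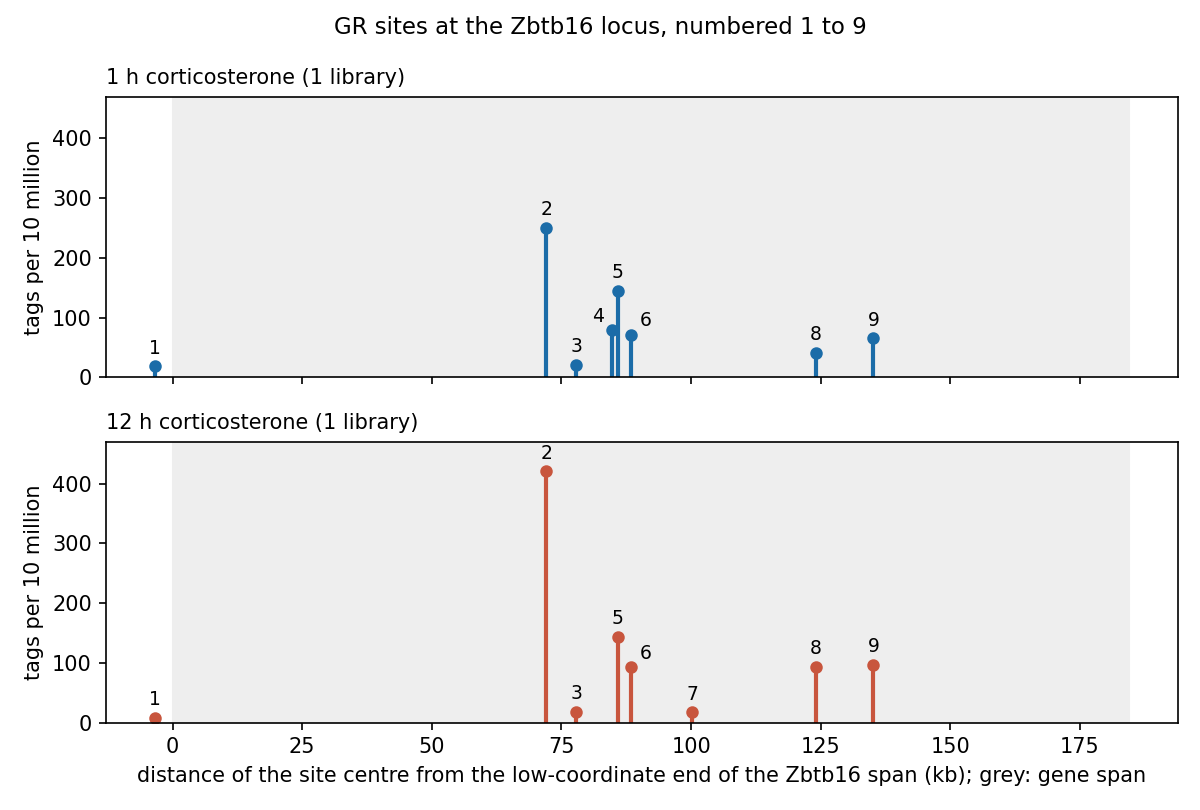
Normalised tags per GR site (y axis, tags per 10000000) against the distance of the site centre from the low-coordinate end of the Zbtb16 span in kb (x axis), at 1 h (top) and 12 h (bottom), 1 library each, with the gene span in grey. Site 2 is the tallest at both times, with 250.2 and 421 tags, site 4 appears at 1 h alone and site 7 at 12 h alone.

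Site 2 (chromosome 9, 48723688 to 48723970 at 1 h and 48723613 to 48723915 at 12 h) was the strongest of the locus at both times. It held 250.2 tags at 1 h and 421 at 12 h. Before hormone 3 tags fell in its 1 h window and 6 in its wider 12 h window, where the genome-wide average of the untreated library would give 10.8 and 11.6. By tags the site ranked 30 of 5638 at 1 h and 2 of 2883 at 12 h, and it was the strongest of the chromosome at both times. The 12 h library exceeded the 1 h library by a log2 ratio of 0.75 (95% counting interval 0.68 to 0.82), or 1.68-fold. By this ratio the site ranked 72 of all shared sites, and 2.96% had a ratio as high or higher. The gain of 170.6 tags was the largest among the 2436 sites listed at both times. The next largest was 119 tags, at a site inside Zhx3 that was looked up after its value was seen (54.8 tags at 1 h and 173 at 12 h). The window moved by 65 bp between the lists, a distance reached or passed by 10.8% of shared sites, so the values come from windows that overlap in part.

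Sites 8 and 9 lay farther along the span and also held more tags at 12 h. Site 8 (48775678 to 48775960) went from 41.0 tags in the 1 h library to 93.5 in the 12 h library, a log2 ratio of 1.19 (1.01 to 1.37), or 2.28-fold. Only 0.575% of all shared sites had a ratio as high or higher. Site 9 (48786814 to 48787096) held 65.3 and 96.7 tags, a log2 ratio of 0.57 (0.42 to 0.72). The untreated library held 5 and 7 tags at site 8 and 19 and 17 at site 9, the latter 1.75 and 1.47 times its average. Together sites 8 and 9 made up 15.4% of the tags of the locus at 1 h and 21.3% at 12 h.

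Sites 3 to 6 lay between 77.9 and 88.5 kb from the low-coordinate end and included a pair whose centres were 1066 bp apart. Site 5 (48737496 to 48737778), the second strongest of the locus, held 145 and 144 tags, equal within counting error (log2 ratio -0.01, -0.12 to 0.10). Site 6 (48740144 to 48740426) held 71.3 and 92.7 tags, higher at 12 h by a log2 ratio of 0.38 (0.23 to 0.53). Site 3 (48729523 to 48729805) was weak, with 21.6 and 18.5 tags, and its interval held 0 (log2 ratio -0.23, -0.52 to 0.07). It stood 11.4-fold over the untreated library at 1 h and 9.78-fold at 12 h. The untreated library held 10 tags at site 5, 12 at site 6 and 15 at site 3, in the windows of either list.

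Site 1 (48648267 to 48648549), the one outside the span, went the other way. Its tags were 18.8 in the 1 h and 7.77 in the 12 h library, a log2 ratio of -1.27 (-1.68 to -0.87). At 12 h it was only just listed. Its 76 unscaled tags gave a score of 79 against a threshold of 75, its fold over the untreated library was 6.84 and its fold over the local region 6.26, both against a minimum of 6. It lay 75.4 kb from site 2 and 40.8 kb from Nnmt, the nicotinamide N-methyltransferase gene, which is the next protein-coding gene on that side.

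**Figure D2:**
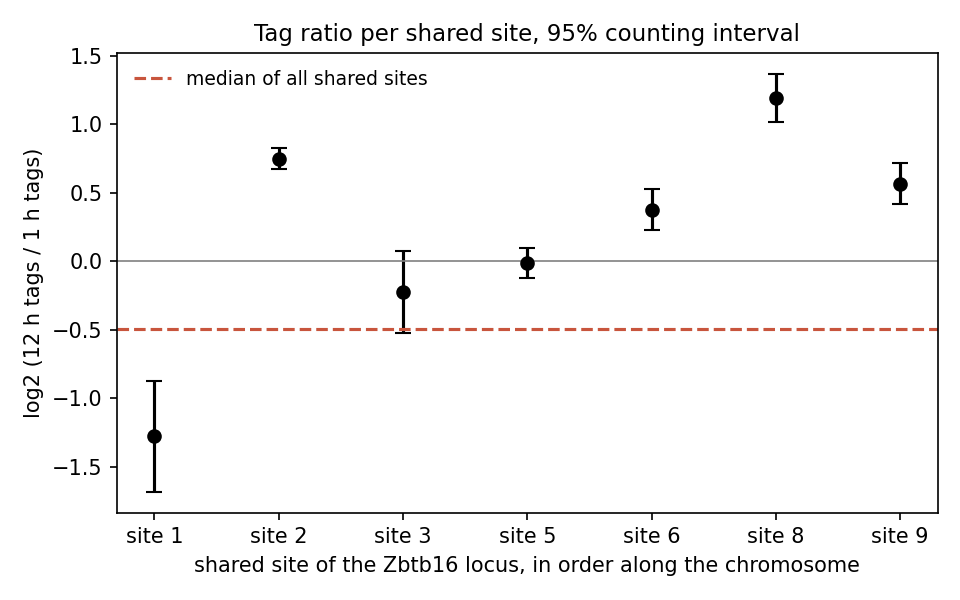
Log2 ratio of 12 h over 1 h tags (y axis) for the 7 shared sites of the Zbtb16 locus in order along the chromosome (x axis), with 95% counting intervals, 1 library per time. The dashed line is the median of all shared sites, -0.49. Sites 2, 6, 8 and 9 lie above 0, sites 3 and 5 have intervals that hold 0, and site 1 lies below both lines.

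More tags at 12 h than at 1 h were found at 4 of the 7 shared sites of the locus, against 22.8% of all 2436 shared sites. At each of the 4 the interval lay wholly above 0, against 11.5% of all. An interval wholly below 0 was found at 1 site, against 61.8% of all shared sites. A ratio of at least 2-fold up was found at 1 site (site 8), against 1.44%, and of at least 2-fold down at 1 site (site 1), against 24.5%. The median log2 ratio was 0.38 at the locus and -0.49 over all shared sites. Summed over the 7 sites, tags went from 613 at 1 h to 874 at 12 h, a log2 ratio of 0.51 (0.46 to 0.56), or 1.42-fold. The same sum over all shared sites gave 0.672-fold (log2 ratio -0.57). Without site 2 the other 6 sites went from 363 to 453 tags, a log2 ratio of 0.32 (0.25 to 0.39).

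The log2 ratios of all shared sites scattered around the median of -0.49, and relative to that median sites 3 and 5 changed sign. Centred on that median, sites 3 and 5 had positive log2 ratios of 0.27 and 0.48, sites 2, 6, 8 and 9 had ratios of 0.87 to 1.69, and site 1 had -0.78. Which of the scales reflects receptor occupancy was not tested.

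The same values were taken among the stronger shared sites, with no upper limit and so without matching for strength. A lower limit on the geometric mean of both tag counts left 473 shared sites of at least 50 tags, 5 of them at Zbtb16. Site 8, with 41.0 tags at 1 h, passed this limit through its 93.5 tags at 12 h. Sites 1 and 3, which held fewer tags at 12 h than at 1 h, fell below the limit. The limit uses the 12 h tags that also enter the log2 ratio. The counts and ranks below therefore depend on this choice and are a description. Over the 473 sites the median log2 ratio was -0.59. An interval wholly above 0 was found at 12.5% of these sites and at 4 of the 5 at Zbtb16. Ranked by log2 ratio from the highest, site 8 came 4 of 473, site 2 came 13, site 9 came 22, site 6 came 30 and site 5 came 91. Of all shared sites, 58 (2.38%) gained more than 20 tags, and 4 of these 58 were sites 2, 6, 8 and 9. A limit in tags favours strong sites, since the median over all 1 h peaks was 18.3 tags. Site 6 passed it narrowly, with 71.3 and 92.7 tags. These are the same 4 sites already counted as higher at 12 h, so the count adds no separate result. The sites of the locus share a chromosome segment and a pair of libraries and are not replicates of each other.

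**Figure D3:**
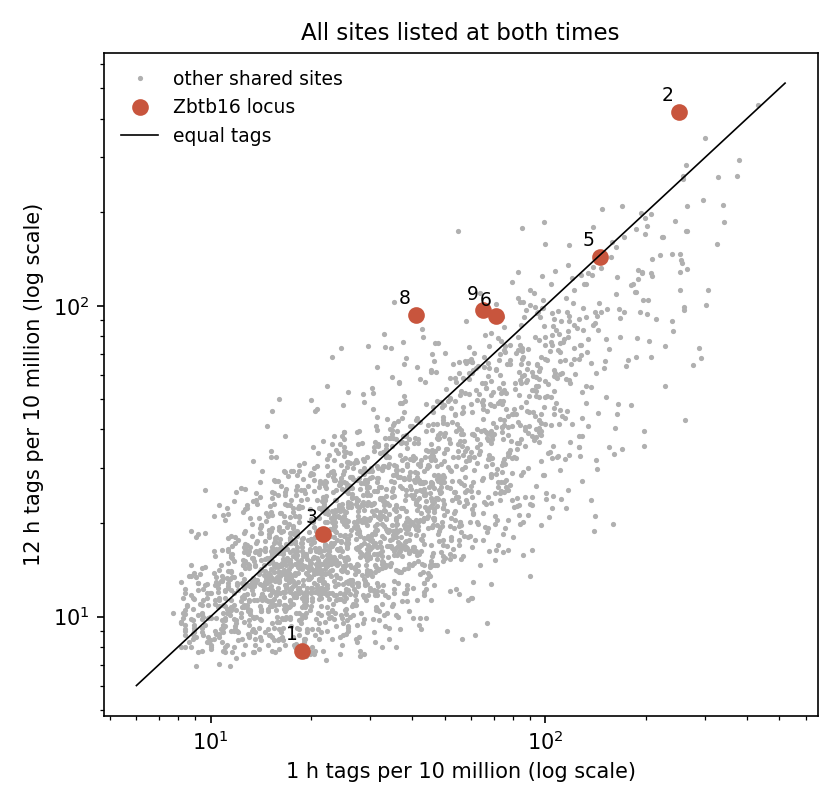
Normalised tags at 12 h (y axis, log scale) against tags at 1 h (x axis, log scale) for the 2436 sites listed at both times, 1 library per time, with the 7 shared Zbtb16 sites in colour and numbered. Most sites fall below the line of equal tags, whereas sites 2, 6, 8 and 9 lie above it.

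Each list held 1 site without a partner. Of the 8 sites listed at 1 h, 7 were listed at 12 h (87.5%), against 43.2% of all 1 h peaks. These 8 are all the 1 h sites of 1 locus and not independent draws, so the share is given without an interval. Most of the sites were strong, with a median of 68.3 tags at 1 h against 18.3 over all peaks, and of the highest 10% of 1 h peaks by tags 94.5% were listed at 12 h. Of these strongest peaks the locus held 5 (sites 2, 4, 5, 6 and 9), and 4 of the 5 were listed at 12 h. Of the 8 sites listed at 12 h, 7 were listed at 1 h, close to the 84.5% of all 12 h peaks.

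Site 4 (48736430 to 48736712) was listed at 1 h with 79.0 tags, 69.5-fold over the 9 tags of the untreated library, and was not listed at 12 h. Its fold over the surrounding 10 kb was 8.27, and that region also held sites 5 and 6. From the deposited local folds, the surrounding level was 9.55 tags per window at site 4, 7.61 at site 5 and 9.32 at site 6 at 1 h, against 1.11 to 2.60 at the other sites. At 12 h it was 9.07 at site 5 and 10.4 at site 6. A peak beside them at 12 h would have needed about 54.4 to 62.1 tags to reach the local minimum, but 6.82 to reach the minimum over the untreated library and about 7.67 to reach the threshold of 75 unscaled tags. The 79.0 tags of site 4 at 1 h were above each of these values. Its tags and its local level at 12 h are not given in the list. The caller's minimum distance between peaks was 604 bp at 12 h, and at 1 h the centres of sites 4 and 5 lay 1066 bp apart. Why site 4 was not listed at 12 h was not tested.

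Site 7 (48751894 to 48752196) was listed at 12 h alone, with 17.6 tags. It stood 27.9-fold over the 5 tags of the untreated library and 9.33-fold over the local region. At 1 h it would have needed 3.79 tags to pass the minimum over the untreated library and about 8.28 to reach the tag threshold. Its local level at 1 h is not given.

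**Figure D4:**
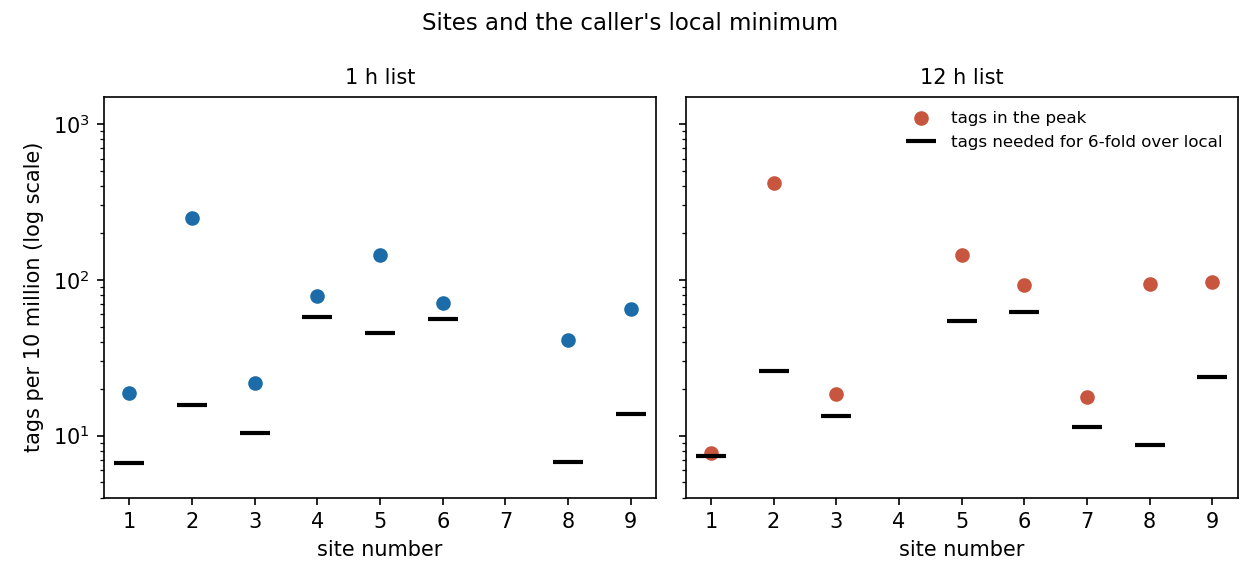
Tags in each peak (points) and the tags that the site would have needed to stand 6-fold over its surrounding 10 kb (bars), by site number (x axis) on a log scale (y axis, tags per 10000000), at 1 h (left) and 12 h (right), 1 library each. The bars are highest at sites 4, 5 and 6, from 45.7 to 62.1 tags, and at 12 h site 1 lies just above its bar.

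Few genes held as many sites or tags in their span as Zbtb16. The locus was chosen with earlier results of these data known, so its ranks are a description. Within the span alone, Zbtb16 held 7 sites at each time and tag sums of 673.5 at 1 h and 884 at 12 h. Among 21887 protein-coding genes only Tns1 (872 tags) and Bcl2l1 (718) had a larger sum in their span at 1 h. At 12 h none did, and Tns1 came next with 610 tags. More sites were found in the spans of Csmd3, Tns1 and Sox5 at 1 h (11, 10 and 8) and of Csmd3 and Tns1 at 12 h (8 each). These genes were looked up after their values were seen, and the spans of Csmd3 (1212 kb) and Sox5 (954 kb) are longer than the 184 kb of Zbtb16.

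With 250 kb on either side, 49 genes had a larger sum than Zbtb16 at 1 h and 0 at 12 h, when the sum at Zbtb16 was 891 tags. More sites than at Zbtb16 were found for 152 genes at 1 h and 16 at 12 h. Neighbouring genes share such windows. The gene models Gm32280, which lies inside the Zbtb16 span, and Nnmt had the same 8 sites and the same sum. The locus held 0.413% of all tags in 1 h peaks and 1.10% of those in 12 h peaks, with 0.142% and 0.277% of the peaks. Sites 4, 5 and 6 fell within 10 kb, and no 10 kb stretch held more than 3 sites in either list. In the 1 h list 27 of the 5638 peaks opened a stretch with as many, a count that includes peaks of the locus itself. At 12 h the locus held at most 2 sites in 10 kb. In that list 191 of the 2883 peaks (6.63%) opened a stretch with as many or more.

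Other genes of the window carried no peak of their own. The rule brought in 12 protein-coding genes, and 10 of them had no peak within 25 kb at either time. The exceptions were Zbtb16 and Gm32280, which had site 1 within 21.7 kb. The serotonin receptor subunit genes Htr3a and Htr3b lay 112 and 148 kb from site 9, their nearest peak, and the deubiquitinase gene Usp28 lay 198 kb from it. The exoribonuclease gene Rexo2 and the RNA-binding protein gene Rbm7 lay 168 and 153 kb from site 1. Gm5617 lay 152 kb from site 1, and Cldn25-ps, the kinetochore gene Zw10 and the protease gene Tmprss5 lay 261 to 292 kb from site 9. The nearest protein-coding gene was Zbtb16 for sites 2 to 9, which follows from their place inside its span. It was also the nearest to site 1, 3.39 kb outside the span. Distance does not show which gene a site acts on.

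The sites most like site 2 in level over the 2 treated libraries were found by Euclidean distance on log2 tags. They lay inside Pdlim5, a gene of the actin cytoskeleton (300.5 and 345 tags, distance 0.39), inside Fkbp5, an HSP90 co-chaperone gene (264 and 284 tags, 0.57), and 135 kb from 1700056E22Rik (257 and 261 tags, 0.69). Their log2 ratios were 0.20 (0.13 to 0.27), 0.11 (0.03 to 0.19) and 0.02 (-0.06 to 0.10). Each held more tags than site 2 at 1 h and fewer at 12 h, so a ratio below that of site 2 follows directly. The sites were chosen on the same tags that make up these ratios, which are therefore a description and not a separate comparison.

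Zbtb16 belongs to the BTB zinc finger family of transcription factors. Of 32 members, Zbtb16 included, 6 had a 1 h peak within 25 kb, against 16.9% of protein-coding genes, and 5 had a 12 h peak, against 9.22%. Peaks at both times were near 4 members, against 8.63%. After Zbtb16 the strongest 1 h sites within 25 kb of a member were near Zbtb17, which encodes the MYC partner MIZ1 (27.6 and 20.5 tags, a log2 ratio of -0.43, -0.71 to -0.16), in Zbtb20 (25 and 18.1 tags, -0.46, -0.75 to -0.17) and near Zbtb7b, which encodes the T helper cell factor ThPOK (20.2 tags at 1 h alone). The Zbtb17 site was nearer to Hspb7 and the Zbtb7b site nearer to Dcst1. Zbtb20 had 5 sites at 1 h and 1 at 12 h. Zbtb7c had a peak at 12 h alone, with 8.39 tags. This order depends on the limit of 25 kb. When peaks up to 250 kb away were assigned to their nearest protein-coding gene, a choice made after seeing the data, Zbtb38 came next after Zbtb16, with 106 tags at 1 h and 53.2 at 12 h at a site 27.4 kb away. That site held more 1 h tags than each of the Zbtb16 sites except sites 2 and 5.

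Of 13 genes for cofactors and partners of PLZF, 4 had a 1 h peak within 25 kb, against 16.9% of protein-coding genes, and 2 a 12 h peak, against 9.22%. At Hdac7, a class IIa histone deacetylase gene, 56.8 tags were found in the 1 h and 38.6 in the 12 h library (log2 ratio -0.56, -0.75 to -0.36). Rara, the retinoic acid receptor alpha gene, held 23.3 tags at 1 h alone, and Hdac4 12.0 at 1 h alone. The shared sites named here for Zbtb17, Zbtb20 and Hdac7 were lower at 12 h, as were most shared sites of the series and, at Zbtb16, site 1.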

How the data were processed

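The submitters' processing notes name bcl2fastq 2.17, Bowtie2 2.2.6, HOMER (with no version) and the build mm10. Per the file headers, peaks were called per library with findPeaks in factor style at a false discovery rate of 0.001, a tag threshold of 75, a fold of at least 6 over control and over the local 10 kb, and a Poisson p-value limit of 0.0001. The control was the untreated library for both treated lists and an input library for the untreated list, which held 1 peak, on another chromosome. The input sample is not analysed here.

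The normalised tag count is a signal that the authors scaled to 10000000 tags. The deposited total tags, scaled by the authors to the untreated library, were scaled back and gave whole tags within 0.1 of a tag for 100% of peaks. The deposited control tags are unscaled and hold a floor of 0.5 for empty windows. The count of tags in the untreated peak was deposited whole. Folds are ratios deposited by the authors. The deposited score was used only within a list, the focus ratio (a fraction that the authors deposited) is given as a description, and the deposited p-value was not used.

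Sites were paired by overlap of at least 1 bp. Log2 ratios of 12 h over 1 h tags have Clopper-Pearson 95% intervals from the unscaled tags, with scipy 1.17.1. The interval and the pairing were checked on simulated data. Genes are protein-coding spans from RefSeq GRCm38.p6, the assembly of mm10; start sites, exons and the sequence of the sites were not used here. The level around a site is its tags divided by its deposited local fold.

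Named are all 9 sites, the protein-coding genes of the window, up to 4 members of each related gene list by 1 h tags and members with a 12 h peak alone, and the 3 sites nearest to site 2 in level. An item that this rule selects is not reported here. The locus and the lists were chosen with earlier results of these data known. Alternatives concerned the window, the caller's minimums, the pairing, the scaling of tags and the control.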

Additional observations from a re-analysis of the deposited data

How the results depend on the processing

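Under doubled minimums of the caller (at least 2 times the score, fold and local fold), the locus kept 5 sites at 1 h, 4 at 12 h and 4 at both times; the summed log2 ratio was then 0.59 and the median 0.66. Tags per base of the window gave a summed log2 ratio of 0.41 and 0.65 at site 2. Centred on the median of all shared sites, the summed ratio was 1.01, the median 0.87 and the ratio at site 2 1.24, and 0 sites were at least 2-fold lower, since centring adds the same amount to every site. Without site 2, an alternative chosen after seeing the data, the summed ratio was 0.32. The gene span alone, other windows, pairing by centres within 100 bp, the nearest gene and subtraction of control tags left the other values within their counting intervals or within 1.5-fold of the counts.

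The rank of Zbtb16 among genes depended on the window, a choice also made after seeing the data. The number of genes with a larger tag sum at 1 h was 2 for the span alone, 3 at 25 kb, 10 at 100 kb, 49 at 250 kb and 135 at 500 kb. At 12 h it was 0 up to 250 kb and 4 at 500 kb. Genes with more sites numbered 3, 2, 12, 152 and 928 at 1 h and 2, 0, 0, 16 and 102 at 12 h, in the same order. With peaks assigned to the nearest gene within 250 kb, the strongest 1 h site of another BTB zinc finger gene held 106 tags (Zbtb38) in place of 27.6 (Zbtb17). No paired analysis was possible because each group has 1 library and the groups share only replicate number 1. Leaving out a replicate was not possible either. The depth of 79203826 to 97749688 tags gave counting intervals of 0.15 log2 units in width at site 2 and 0.81 at site 1.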

Other observations

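The focus ratio, the caller's measure of how tightly tags gather at a peak's centre, had a median of 0.899 over the 8 sites at 1 h and 0.865 over the 8 at 12 h, against 0.841 and 0.838 over all peaks. At site 2 it was 0.845 at 1 h and 0.902 at 12 h, and at site 8 0.908 and 0.945. The lowest values of the locus were those of site 1 (0.790) and site 7 (0.796) at 12 h, and site 1 had 0.869 at 1 h. At site 9 it was 0.858 and 0.818, and the centre of that site moved by 37 bp. The median shift of the centre between the lists was 19 bp over all shared sites. At sites 3, 5, 6 and 8 the shift was 12, 10, 5 and 4 bp.

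The untreated library held a mean of 10.1 tags per window at the sites of the locus in both lists, against 11.4 over all 1 h peaks and 12.3 over all 12 h peaks. The minimum fold of 6 over this library limits these means by selection.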
